A study of Drosophila melanogaster with 12 samples.

Results

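Pdh, retinin, Nplp3 and CG4962 are 4 genes of Drosophila melanogaster that are linked to the eye and cornea and were chosen by their measured levels in these arrays, higher at ZT16 (night) than at ZT4 (day). They are 4 of the 11982 genes that had a probe set of their own on the 8-array design, and each also had 1 on a second, 4-array design. Levels were measured in fly heads, on Affymetrix arrays, from total RNA. The flies in every group carry CLKGR, in which the clock activator CLOCK is joined to glucocorticoid receptor sequence so that the steroid dexamethasone (DEX) switches it on. All groups, controls included, received cycloheximide (CHX), a blocker of protein synthesis, with DEX or with vehicle (V). Of the 8 arrays, 1 vehicle and 2 DEX arrays were labelled ZT4 (Zeitgeber time, hours after lights on) and 2 vehicle and 2 DEX arrays ZT16, while 1 vehicle array had no labelled time. The 4-array design held 2 arrays labelled vehicle and 2 labelled DEX, with no labelled time. The title of 1 of those vehicle arrays has no replicate number, and it is called the unnumbered vehicle array. The labels do not give the driver of CLKGR, the age or sex of the flies or the number of heads in a sample.

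The fly eye is covered by a corneal lens secreted by the cone and pigment cells, which also surround the photoreceptors. Pigment cells take part in making and recycling the retinal chromophore of the visual pigments. Pdh encodes a retinol dehydrogenase of the retinal pigment cells, named photoreceptor dehydrogenase. Retinin is a protein of the corneal lens and of its surface coat. Nplp3 encodes neuropeptide-like precursor 3, and the product of CG4962 is uncharacterised. CLOCK is known for driving transcripts that cycle with time of day. The question these genes bear on is whether their day-night difference depends on DEX. All groups carry CLKGR, so an effect of DEX through CLKGR cannot be told apart from another effect of DEX.

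All levels are natural logs of the deposited intensities, read as log2 levels, so that 1 unit is a doubling on this reading. Median levels of the probe sets kept for testing lay between 3.43 and 3.51 on all 12 arrays. On the 8-array design the vehicle ZT16 replicate 1 stood apart most, with a mean correlation of 0.945 with the remaining arrays, where those had 0.952 to 0.969. Night minus day differences of the clock genes tim, per and vri were -1.27 ± 0.40 (SE), -0.395 ± 0.345 and -0.54 ± 0.30 in the additive fit. Each had a limma adjusted p of 0.99. With vehicle they were -0.74, 0.24 and -0.35, and with DEX -1.63, -0.82 and -0.67. Limma's DEX coefficient for tim was 3.21 on the arrays with a time and -3.80 on the 4-array table. For per it was 2.63 and -1.90, and for vri 1.61 and -0.21 ± 0.66. The arrays of the 4-array table are therefore called "labelled vehicle" and "labelled DEX". Whether those labels are exchanged was not tested.

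Pdh, the pigment cell dehydrogenase, had a level of 5.88 in the vehicle array at ZT4 and of 6.03 and 5.05 in the DEX arrays at ZT4. At ZT16 it had 7.55 and 8.35 with vehicle and 8.55 and 8.42 with DEX. All 4 night arrays lay above all 3 day arrays, with a gap of 1.53 between the lowest night and the highest day array.

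Retinin, the corneal lens gene, spread more widely. Its ZT4 levels were 4.98 with vehicle and 6.41 and 4.42 with DEX. Its ZT16 levels were 7.20 and 8.68 with vehicle and 9.28 and 8.28 with DEX. The groups did not overlap here either, but the day array that was highest, DEX ZT4 replicate 1, came within 0.79 of the lowest night array.

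Nplp3, the neuropeptide-like precursor, had the smallest day-night difference. It read 4.51 with vehicle and 4.98 and 4.86 with DEX at ZT4. It read 5.65 and 6.05 with vehicle and 6.43 and 5.86 with DEX at ZT16. Its day and night arrays were 0.67 apart at the closest.

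CG4962, of unknown function, read 4.56 with vehicle and 4.77 and 3.68 with DEX at ZT4. At ZT16 it read 5.65 and 7.18 with vehicle and 6.94 and 6.52 with DEX. The gap between its lowest night and highest day array was 0.88.

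**Figure D1:**
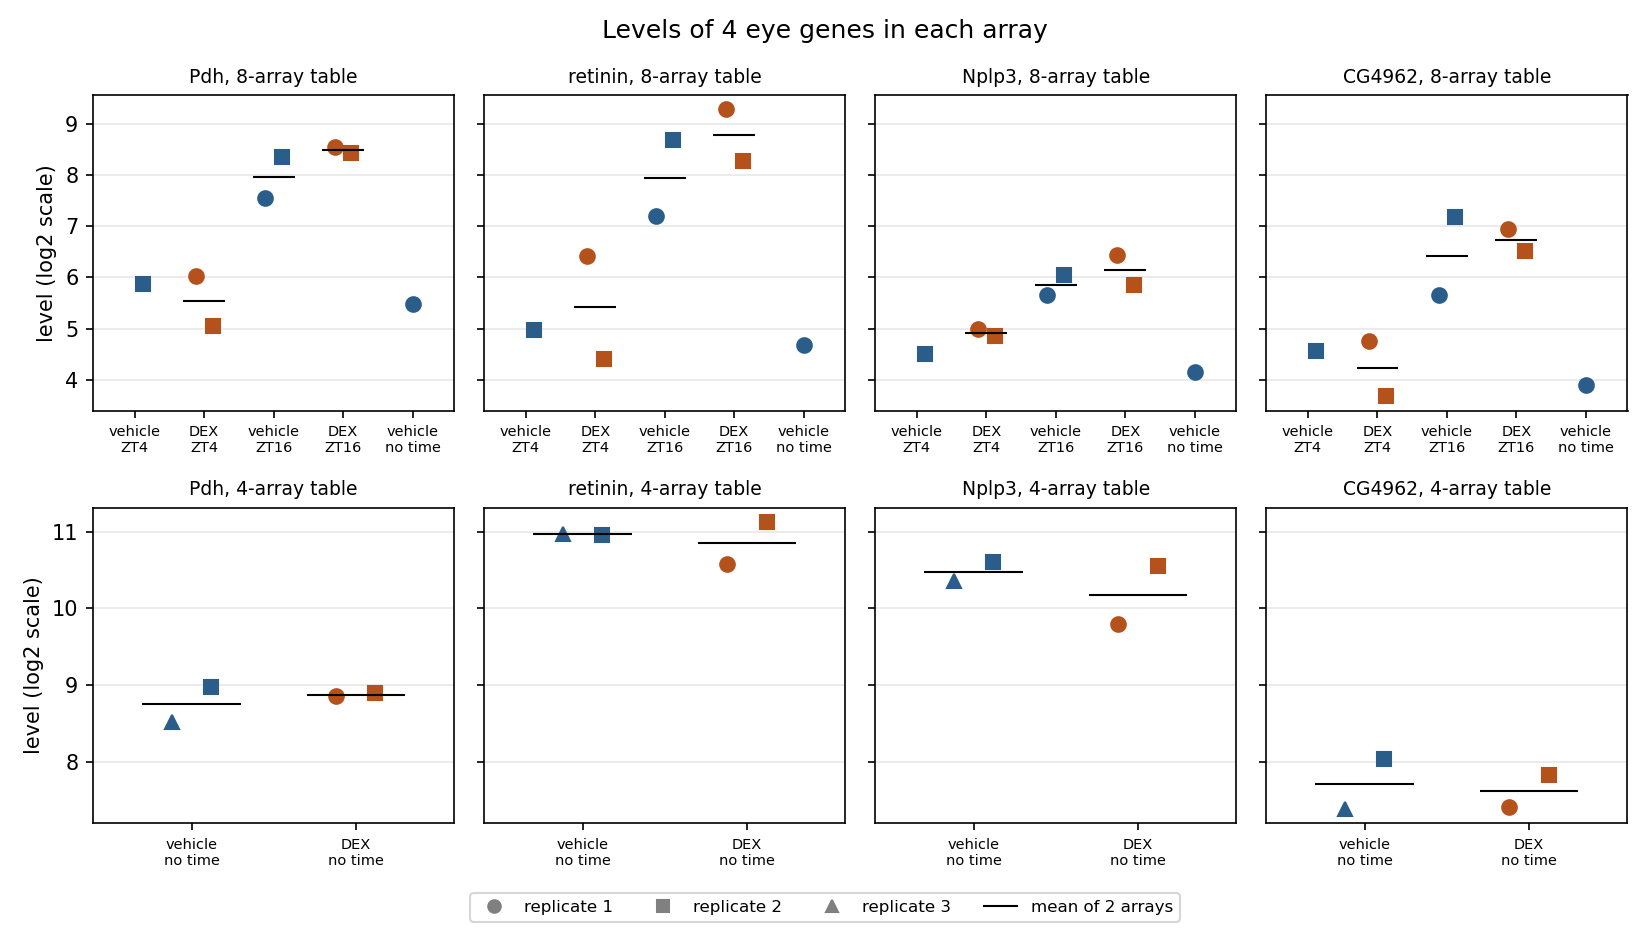
Level (log2 scale) of each gene in every array, with the 8-array table above and the 4-array table below; blue is vehicle, orange is DEX, symbols give the replicate number (3 for the unnumbered vehicle array) and lines the mean of 2 arrays. In the upper row the 4 ZT16 arrays lie above the 3 ZT4 arrays for each gene, and in the lower row vehicle and DEX arrays overlap.

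The day-night difference was positive for each gene with vehicle and with DEX. Between group means, ZT16 exceeded ZT4 by 2.07 with vehicle and 2.95 with DEX for Pdh. For retinin these differences were 2.96 and 3.37. For Nplp3 they were 1.34 and 1.22, and for CG4962 1.85 and 2.51. Over both treatments the additive fit gave 3.21 ± 0.58 (SE) for retinin, a 9.22-fold difference, 2.60 ± 0.35 for Pdh, 2.25 ± 0.45 for CG4962 and 1.27 ± 0.22 for Nplp3. Retinin, Pdh and CG4962 held places 1, 2 and 3 by size among the 11261 kept probe sets, and Nplp3 place 15. This contrast chose the genes, so these values describe them and were not tested. A night level above every day level was seen for 4 of 4 genes and for 2.44% of all kept probe sets, a share printed as background from which nothing is read here. Without the vehicle ZT16 replicate 1 the differences were 3.48 for retinin, 2.79 for Pdh, 2.55 for CG4962 and 1.33 for Nplp3.

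The vehicle value rests on a single ZT4 array and on ZT16 arrays that lay apart. With 1 or the other ZT16 vehicle array left out, the vehicle difference of CG4962 was 2.62 or 1.09, that of retinin 3.70 or 2.22, that of Pdh 2.47 or 1.68 and that of Nplp3 1.54 or 1.15. With DEX, the difference of retinin was 4.37 or 2.37 when replicate 1 or replicate 2 at ZT4 was left out, and that of Nplp3 ran from 0.94 to 1.51 over the arrays left out.

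The 4 genes also differed between replicate arrays in the same order. In the DEX ZT4 pair replicate 1 was higher for 4 of 4 genes, by 0.12 to 2.00. In the vehicle ZT16 pair replicate 2 was higher for all 4, by 0.39 to 1.53, and in the DEX ZT16 pair replicate 1 was higher for all 4, by 0.13 to 1.00. Over all kept probe sets replicate 1 was the higher in 46.0%, 55.1% and 45.0% of these pairs. This order was not particular to the 4 genes. Of the other eye genes named below, rdhB, Cpr72Ec, chp, inaD, Arr1 and Arr2 had it in every pair. The eye genes trp, inaC and pinta did not. The lower ZT16 vehicle array is the one with the lowest correlation with the others.

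Whether DEX alters the day-night difference was tested with the interaction term. That term did not itself choose the genes, but it is built from the day-night differences on which they were chosen. It may therefore not be free of the choice. The night minus day difference was larger with DEX by 0.87 ± 0.71 (SE) for Pdh, with a 95% interval from -0.87 to 2.62. It was larger by 0.66 ± 0.96 for CG4962 (-1.70 to 3.02) and by 0.41 ± 1.30 for retinin (-2.78 to 3.59). For Nplp3 the term was -0.12 ± 0.49 (-1.33 to 1.09). With limma and adjustment across the 11261 kept probe sets, each of the 4 genes had an adjusted p of 0.997 and none passed. None had an unadjusted p under 0.05, where 2.72% of all kept probe sets did, and 0 probe sets passed after adjustment. The intervals are wide, so that a DEX-dependent part as large as the day-night difference of Nplp3 was within the interval for Pdh, retinin and CG4962. Single arrays moved these values. That for Pdh was 0.38 without DEX ZT4 replicate 2, 0.47 without vehicle ZT16 replicate 1 and 1.36 without DEX ZT4 replicate 1. That for Nplp3 was positive without vehicle ZT16 replicate 2 (0.08) or DEX ZT16 replicate 2 (0.17), and -0.41 without DEX ZT16 replicate 1. The sign for CG4962 was negative without vehicle ZT16 replicate 1 (-0.11). That for retinin was negative in 3 cases, at -0.59 without DEX ZT4 replicate 2, at -0.33 without vehicle ZT16 replicate 1 and at -0.09 without DEX ZT16 replicate 1.

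The DEX differences within a time had intervals that spanned 0 for all 4 genes. At ZT16, limma's DEX minus vehicle difference was 0.85 ± 0.82 (SE) for retinin, 0.54 ± 0.45 for Pdh, 0.32 ± 0.61 for CG4962 and 0.30 ± 0.31 for Nplp3. Without vehicle ZT16 replicate 1 these were 0.11 for retinin, 0.14 for Pdh, -0.44 for CG4962 and 0.10 for Nplp3. Without vehicle ZT16 replicate 2 they were 1.58, 0.93, 1.08 and 0.49 in the same order. Without DEX ZT16 replicate 1 that of Nplp3 was 0.01, that of retinin 0.35 and that of CG4962 0.11, and without DEX ZT16 replicate 2 they were 0.58, 1.35 and 0.53. Both DEX arrays lay above both vehicle arrays at ZT16 for 1 of the 4 genes, Pdh, by 0.07, and for 10.1% of all kept probe sets. At ZT4, against a single vehicle array, the differences were 0.44 ± 1.00 for retinin, 0.42 ± 0.38 for Nplp3, -0.34 ± 0.55 for Pdh and -0.34 ± 0.74 for CG4962. At ZT4 both DEX arrays lay above the vehicle array for 1 of the 4 genes, Nplp3, and for 31.6% of all kept probe sets. None of these 8 values had an unadjusted p under 0.05 in limma, where 2.8% of all kept probe sets did at ZT16 and 4.0% at ZT4. Taking both times in the additive fit, retinin had 0.68 ± 0.58 (-0.70 to 2.06) and Nplp3 0.34 ± 0.22 (-0.17 to 0.86). Pdh had 0.19 ± 0.35 (-0.65 to 1.02) and CG4962 0.06 ± 0.45 (-0.996 to 1.11). In that fit 0 of 4 had an unadjusted p under 0.05, against 3.39% of all kept probe sets, and the limma adjusted p was 0.994 for Pdh, retinin and Nplp3 and 0.999 for CG4962. Over single arrays left out, that of retinin ran from 0.27 without vehicle ZT16 replicate 1 to 1.04 without DEX ZT4 replicate 2. That of Nplp3 ran from 0.21 to 0.50, without DEX ZT16 replicate 1 and replicate 2. The values went below 0 for Pdh without vehicle ZT16 replicate 1 (-0.10), and for CG4962 without it (-0.39), without DEX ZT4 replicate 1 (-0.08) or without DEX ZT16 replicate 1 (-0.11).

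**Figure D2:**
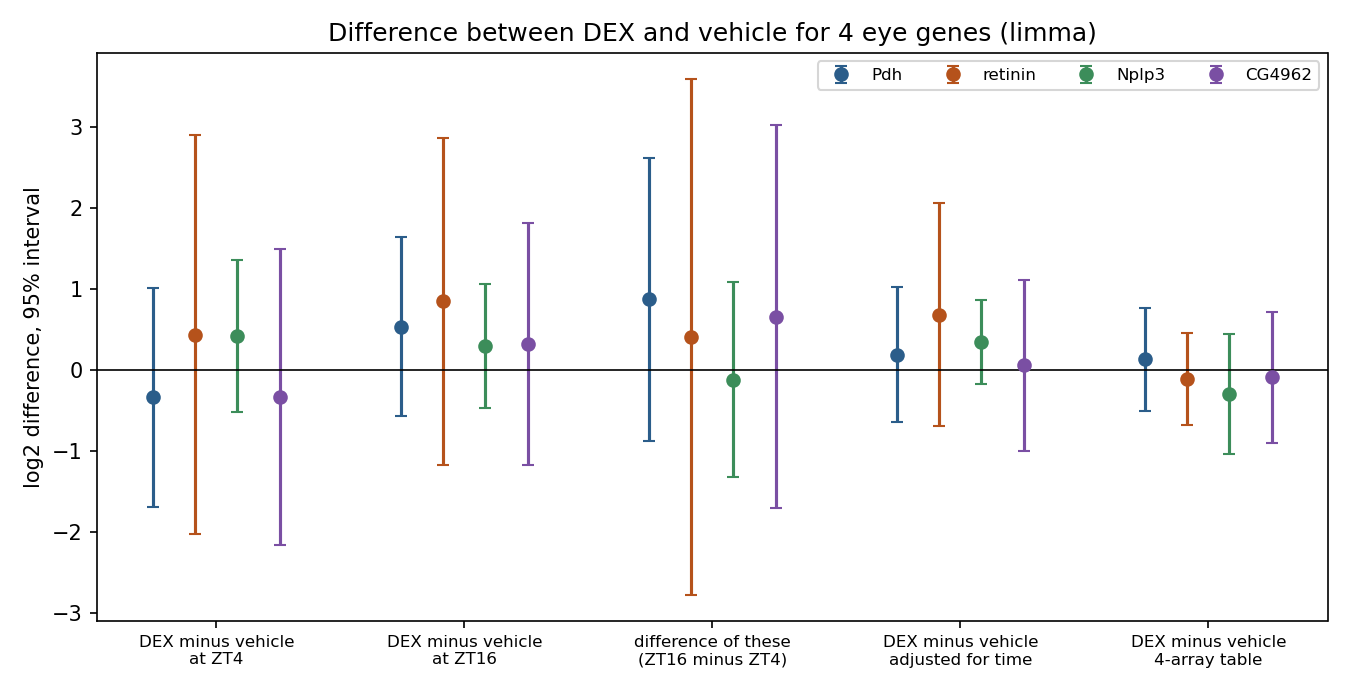
Log2 difference between DEX and vehicle for each gene, with limma's 95% interval, at each time, as the difference between times, adjusted for time, and on the 4-array table. Every interval spans 0, and those of the difference between times are the widest, from -2.78 to 3.59 for retinin.

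The 4-array table holds arrays that did not enter the choice of the genes, and its clock genes tim and per had the opposite sign for DEX. That of vri was also negative, at -0.21 ± 0.66 (SE), with groups that overlapped. If the labels of the 4-array table were exchanged, every sign and every higher or lower share given for it would turn. Pdh read 8.52 and 8.97 on the arrays labelled vehicle and 8.86 and 8.89 on the arrays labelled DEX. Retinin read 10.97 and 10.96 on those labelled vehicle and 10.58 and 11.12 on those labelled DEX. Both genes overlapped between the groups.

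Nplp3 read 10.35 and 10.60 on the arrays labelled vehicle and 9.79 and 10.56 on the arrays labelled DEX. CG4962 read 7.38 and 8.03 against 7.40 and 7.83. These groups overlapped as well, and the array labelled DEX replicate 1 was the lowest of the 4 for retinin and Nplp3. The differences, labelled DEX minus labelled vehicle, were 0.13 ± 0.25 (SE) for Pdh (-0.50 to 0.76), -0.11 ± 0.23 for retinin (-0.68 to 0.45), -0.30 ± 0.30 for Nplp3 (-1.04 to 0.44) and -0.09 ± 0.33 for CG4962 (-0.90 to 0.72) in limma. No gene had groups that lay apart, where 12.1% of the 8379 kept probe sets were higher and 31.4% lower on every array labelled DEX. None had an unadjusted p under 0.05, where 5.42% did and 0.0119% passed after adjustment, and limma's adjusted p ran from 0.784 to 0.92. Without the array labelled DEX replicate 1 the values were 0.16 for retinin, 0.08 for Nplp3 and 0.12 for CG4962. That of Pdh was -0.10 without the unnumbered vehicle array, and that of CG4962 was 0.24 without the array labelled vehicle replicate 2.

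The 4 genes share a place in the genome, which the choice did not use. In the RefSeq gene table of assembly Release 6 all 4 lie on chromosome arm 3L, in the order CG4962, Nplp3, retinin, Pdh, within a run of 33 genes that holds 29 others. Between them lie 9, 12 and 8 genes. The 10 genes on each side of each of the 4 make up 49 neighbours, of which 39 had a probe set of their own on the 8-array design and 19 passed the filter on dim probe sets. Of those 19, 7 had higher and 12 lower values at night, with a median of -0.03, beside 0.02 over all kept probe sets. 1 of 19 had an unadjusted p under 0.05 for time in limma, higher at night, where 1.58% of all kept probe sets did, and 0 passed after adjustment.

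That neighbour is Cpr72Ec, a cuticular protein gene known for its product in the corneal lens, at place 38 counted from CG4962. At ZT4 it read 4.10 with vehicle and 4.26 and 4.02 with DEX. At ZT16 it read 4.14 and 4.66 with vehicle and 5.22 and 4.62 with DEX, so that only the vehicle ZT16 replicate 1 lay within the day values. Its difference was 0.59 ± 0.24 (SE) in limma, with an adjusted p of 0.99. The remaining 18 neighbours had differences between -0.40 (Agpat4) and 0.43 (CG4842). Of the 19, 10 lie between CG4962 and Pdh, from -0.31 for mRpS34 to 0.11 for Golgin104, 3 with positive and 7 with negative values. The other 20 neighbours with a probe set were too dim to compare. For DEX, 0 of the 19 had an unadjusted p under 0.05 in the additive fit in limma, against 3.39% of all kept probe sets. In the interaction 1 of the 19 did, against 2.72% of all kept probe sets. It was CG4842, at 1.47 ± 0.34. Its mean level was 2.85 with vehicle at ZT16 and 2.77 with DEX at ZT4, near the filter level of 2.78.

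**Figure D3:**
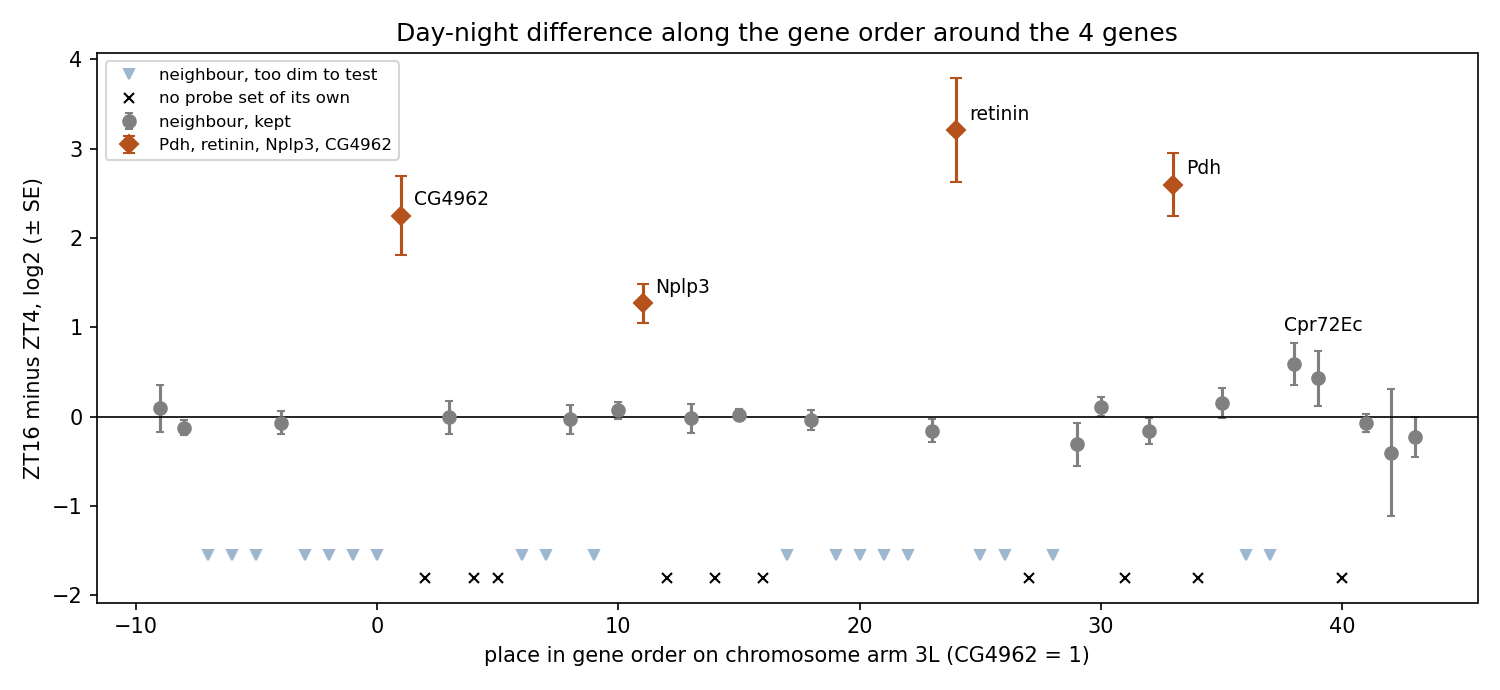
Night minus day difference (log2, ± SE) of the 4 genes (diamonds) and of their 19 kept neighbours (grey) by place in the gene order on 3L, with CG4962 at place 1; triangles and crosses mark neighbours too dim to test or without a probe set of their own. The 4 genes stand at places 1, 11, 24 and 33, and Cpr72Ec is the neighbour with the highest value, 0.59.

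Other genes of the corneal lens, of retinoid and visual pigment handling and of screening pigment were set beside the 4 genes. Of 3 further corneal lens genes 2 had a probe set of their own and only Cpr72Ec passed the filter. Of 9 genes that handle retinoids and visual pigment, 5 were kept, 2 with higher and 3 with lower values at night, with a median of -0.03. The gene closest in function to Pdh, the retinol dehydrogenase gene rdhB, read 5.004 with vehicle and 4.54 and 4.17 with DEX at ZT4. It read 5.50 and 6.80 with vehicle and 6.12 and 4.77 with DEX at ZT16. Its arrays overlapped between day and night, and its difference was 1.11 ± 0.42 (SE), with a limma adjusted p of 0.99. The carotenoid uptake receptor gene santa-maria had 0.51 ± 0.26, and ninaB, which cleaves carotenoids to retinal, had -0.48 ± 0.85. 1 of these 5 had an unadjusted p under 0.05 for DEX in limma, against 3.39% of all kept probe sets. It was the retinoid-binding protein gene pinta, at -0.40 ± 0.14, with a limma adjusted p of 0.994. The vehicle array with no labelled time, outside that fit, read 3.199 for pinta. This was below every DEX array, the lowest of which read 3.202. For time 3.57% and for DEX 3.39% of all kept probe sets had an unadjusted p under 0.05 in limma. None of 6 kept screening pigment genes did for either. Their median difference for time was 0.10, and those with the smallest p were bw, a pigment precursor transporter gene, at 0.24 ± 0.12, se at 0.45 ± 0.42 and kar at 0.21 ± 0.19.

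Of 23 listed photoreceptor genes 13 were kept. Of these, 13 of 13 had positive night minus day differences, against 54.7% of all kept probe sets, with a median of 0.56. 6 of 13 had an unadjusted p under 0.05 in limma, against 1.58% of all kept probe sets, and 0 passed after adjustment. They were the rhabdomere adhesion gene chp at 0.94 ± 0.34 (SE), inaD at 0.80 ± 0.29, the arrestin genes Arr1 at 0.69 ± 0.29 and Arr2 at 0.56 ± 0.18, the channel gene trp at 0.65 ± 0.27 and inaC at 0.56 ± 0.21. With vehicle, where ZT4 had a single array, the list's median was 0.23, and with DEX it was 0.64. The interaction had a median of 0.15, from -0.73 to 0.61, with 10 positive and 3 negative values. For it 0 of 13 had an unadjusted p under 0.05 in limma, where 2.72% of all kept probe sets did. Without vehicle ZT16 replicate 1, 12 of 13 night minus day differences were positive, with a median of 0.71. Of the 11261 kept probe sets 5554 were positive in that fit, with a median of -0.002. For DEX in the additive fit, 0 of 13 had an unadjusted p under 0.05 in limma, against 3.39% of all kept probe sets. Their median was 0.20, with 11 of 13 positive, against 45.7% of all kept probe sets. Of the other neuropeptide-like precursor genes, Nplp1 had 0.55 ± 0.20 for time with an unadjusted p of 0.0274 in limma, and Nplp2 0.32 ± 0.23. The difference of Nplp1 was -0.02 with vehicle and 0.94 with DEX, an interaction of 0.96 ± 0.21, with an adjusted p of 0.997 by limma. Outside the DEX ZT16 arrays, Nplp1 read 2.86 to 3.07 on the 8-array table, near the filter level of 2.78. On the 4-array table Nplp2 was higher on the arrays labelled DEX by 0.56 ± 0.22, with an unadjusted p of 0.0463 in limma.

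**Figure D4:**
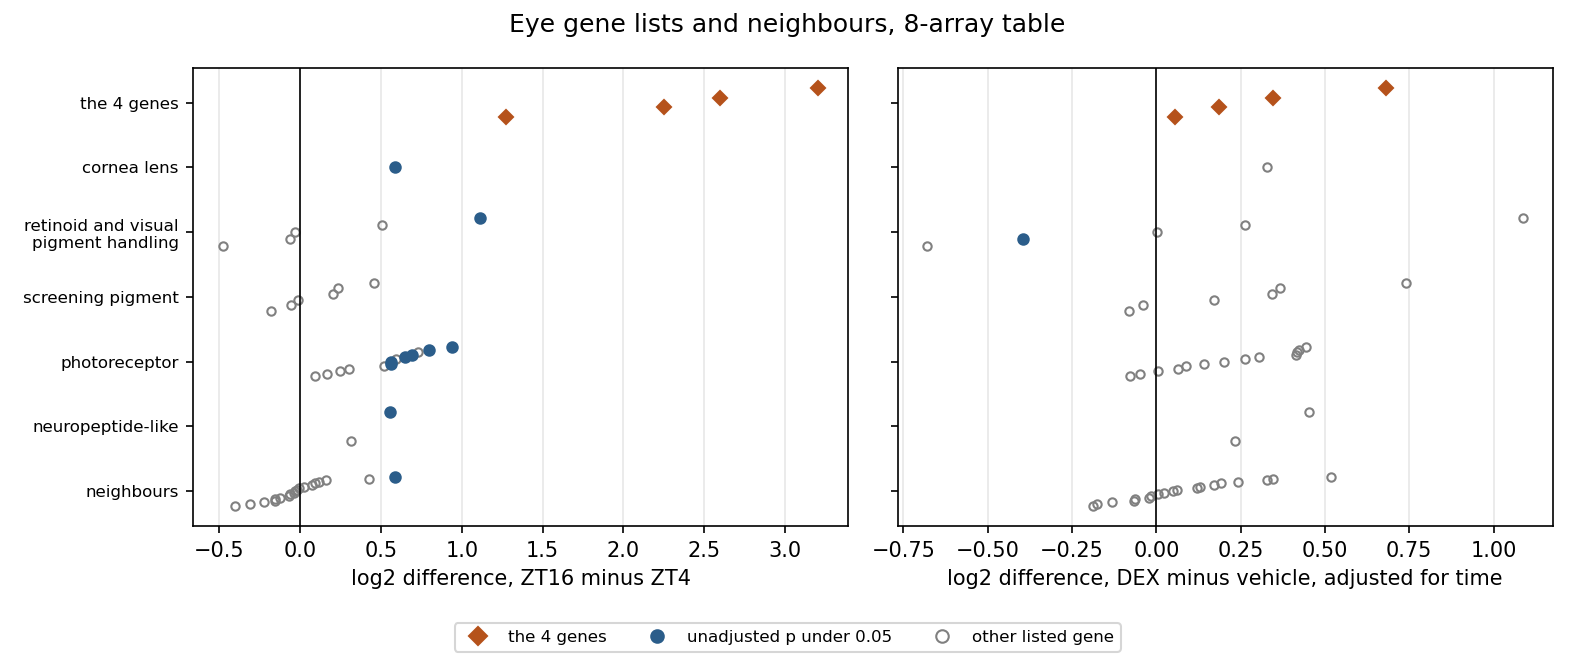
Log2 differences of the 4 genes (diamonds) and of each kept gene of the eye lists and neighbours on the 8-array table, night minus day on the left and DEX minus vehicle on the right; filled circles have an unadjusted p under 0.05 in limma. On the left the 4 genes, which were chosen on this contrast, run from 1.27 to 3.21. Of the listed genes rdhB is highest at 1.11, and the 13 photoreceptor genes lie between 0.09 and 0.94.

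Marker levels of head cell types were read beside these results. In bulk heads, fewer cells of a type and less RNA per cell cannot be told apart. The summed level of the 2 photoreceptor markers with a probe set of their own (of 7), chp and trp, lay between 6.35 and 6.72 on the log2 scale at ZT4 and between 6.68 and 7.65 at ZT16. For pigment and cone cell markers other than Pdh, 3 of 5, it was 4.70 to 4.74 at ZT4 and 4.81 to 5.38 at ZT16. The vehicle array with no labelled time read 4.98. The kept genes among these markers were uneven. The night minus day difference was 0.66 for ct, with 0.14 with vehicle and 1.01 with DEX, and 0.22 for pros. For neurons, 6 of 7, the summed level was 6.72 to 6.95 at ZT4 and 7.06 to 7.36 at ZT16. The neuron markers were uneven, with night minus day differences of 1.07 for Gad1, 0.63 for ChAT and 0.33 for para. Those of elav and nSyb were 0.07 and -0.10, and brp was below the filter level. For cuticle and epidermis, 7 of 7, the summed level was 8.17 to 8.47 and 7.05 to 8.31. The ranges for photoreceptors, cuticle and epidermis, glia, fat body, muscle and haemocytes overlapped between the times. Among the eye markers, Cpr66D was below the filter level, and ninaE, Rh3, Rh4, Rh5, Rh6, Crys and w were not analysed here. The part of these markers in the day-night difference of the 4 genes was not tested.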

How the data were processed

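The authors deposited 2 value tables of intensity on a linear scale. The submitters' processing notes name GCRMA. The sources used here give neither its version nor its settings. The highest intensity among non-control probe sets was 2277728, above the 65535 of a 16-bit scanner, so the natural log was read as the log2 level. Control probe sets (183 and 44) were removed. Kept were probe sets with a mean above the 40th percentile, 11261 of 18769 and 8379 of 13966, among them all 4 genes on both designs. Gene names come from the platform annotation, and symbols were brought up to date with a RefSeq gene table (13544 of 13647 and 12394 of 12443 single-gene probe sets found), and a gene is represented by its probe set with the highest mean.

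Tests used limma 3.58.1, run in R 4.3.3 with eBayes and its mean-variance trend, and statmod 1.5.0 for array weights, Benjamini-Hochberg adjustment over all kept probe sets and a threshold of 0.05, each within its table. The additive fit of time and treatment and the fit with 1 mean per treatment and time used the 7 arrays with a time, the lone ZT4 vehicle array being assumed to vary like the others. The fits were tested on simulated data. Whether replicates are separate collections of flies is not stated in the labels. The p-values therefore cover the spread between arrays alone, and that spread may be technical. Listed genes are named where an unadjusted p was under 0.05 for time or DEX, or else the 3 with the smallest p. The neighbours other than Cpr72Ec, and santa-maria and ninaB, were named after their values were seen. Summed marker levels add 2 to the power of each level. Alternatives were other filters, centring, quantile normalization, no trend, array weights, a replicate block, log2 of the values and each array left out. The counts of listed genes without vehicle ZT16 replicate 1 were added after seeing the data. The 4 genes and the lists were chosen with earlier results of these data known.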

Additional observations from a re-analysis of the deposited data

How the results depend on the processing

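No alternative brought any of the 4 genes past the threshold for DEX or for the interaction, with a smallest limma adjusted p of 0.187, for Nplp3 on the 4-array table. The night minus day differences of Pdh, retinin, Nplp3 and CG4962 stayed positive under the 14 alternatives run for each. Their medians within vehicle and within DEX, 1.96 and 2.73, became 2.83 and 3.94 with log2 of the deposited values, which multiplies every change by 1.44. They ran from 1.41 to 2.55 and from 2.17 to 3.25 with single arrays left out. The DEX difference adjusted for time was negative for CG4962 with quantile normalization (-0.016) and array weights (-0.19), and for Pdh with array weights (-0.060). It ran from -0.10 to 0.54 for Pdh and from -0.39 to 0.37 for CG4962, from 0.27 to 1.04 for retinin and from 0.21 to 0.50 for Nplp3 over single arrays left out. The interaction ran from 0.38 to 1.36 for Pdh, from -0.59 to 1.41 for retinin, from -0.41 to 0.17 for Nplp3 and from -0.11 to 1.42 for CG4962. At ZT4 the range was -0.56 to 1.43 for retinin, -0.82 to 0.15 for Pdh and -0.88 to 0.20 for CG4962, and at ZT16 -0.44 to 1.08 for CG4962, 0.11 to 1.58 for retinin, 0.14 to 0.93 for Pdh and 0.01 to 0.58 for Nplp3. On the 4-array table it was -0.10 to 0.36 for Pdh, -0.39 to 0.16 for retinin, -0.68 to 0.083 for Nplp3 and -0.42 to 0.24 for CG4962. The probe set shared by Pdh and CG15024 gave 0.095 at ZT4 and -0.096 on the 4-array table.

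Over all probe sets, 0 passed for DEX adjusted for time, and 0 to 18 with single arrays left out. For DEX at ZT4, 0 passed, and 1 with array weights. On the smaller design 1 probe set passed, against 23 with no filter, 0 with median centring, quantile normalization or array weights, and 0 to 314 with single arrays left out. The causes were not tested. Replicate numbers are shared between groups, but the labels do not say that they pair samples, and deviations of same-numbered ZT16 arrays correlated at 0.07. With the replicate number as a block 0 probe sets passed for DEX and the interaction of Pdh was 0.92. A fit without the ZT4 vehicle array gives no interaction and no DEX difference at ZT4. No block could be had on the 4-array table, where the groups share 1 number. The number of arrays limits every value.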

Other observations

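The genes whose profile over the 8 arrays of the larger table was most like the mean profile of Pdh, retinin, Nplp3 and CG4962 are given here. Likeness was Pearson's r over 8 arrays, which share the split into night and other arrays, over 7967 kept genes, and it is given as a description with no p. The highest was hig, which encodes a protein of the synaptic cleft, with r of 0.97, and Hasp, a scaffold protein that binds the hig product, was the tenth with 0.91. Between them were ATPsynC (0.94), a subunit of ATP synthase, IscU (0.94), a scaffold for iron-sulfur clusters, the arrestin gene Arr2 (0.94), pkm (0.93), Jhbp2 (0.93), CG18598 (0.93), CG8369 (0.92) and the potassium chloride cotransporter gene kcc (0.92). An r above 0.9 was reached by 15 genes, or 0.188%. The night minus day differences of the 10 were between 0.31 (CG18598) and 1.08 (pkm). For DEX they ran from -0.15 for kcc to 0.19 for IscU. None of the 10 genes lay among the neighbours on 3L. Cpr72Ec, the neighbour nearest in profile, had an r of 0.88. Correlations over the 4 arrays of the other table are not given, since 4 arrays are too few.

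The vehicle array of the 8-array table with no labelled time entered no comparison of times. It read 5.49 for Pdh, 4.68 for retinin, 4.16 for Nplp3 and 3.90 for CG4962. These levels lay between the lowest and highest ZT4 array for Pdh, retinin and CG4962, and below all 7 timed arrays for Nplp3.

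A further probe set on each design is annotated to both Pdh and CG15024 and was not counted as Pdh. On the 8-array table it lay between 3.36 and 3.82 on every array, with a night minus day difference of 0.12 against 2.60 for the probe set of Pdh alone.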
